A study of Capra hircus with 2 samples.

Results

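CRABP1 and CRABP2, the cellular retinoic acid binding proteins, were followed by symbol in single-cell RNA counts of goat skin, where each symbol matched 1 of the 27137 features (gene IDs 102182914 and 102174348). Their levels were compared between stromal and epithelial cells of each library, and their detection in single cells was set beside that of RSPO3, COL1A1 and KRT10. The cells came from the shoulder skin of healthy Liaoning cashmere goats in anagen, the growth phase of the hair cycle, with 1 goat of the coarse fibre type (CT-LCG) and 1 of the fine fibre type (FT-LCG). The skin was dissociated, dead and red blood cells were removed, and each goat gave 1 library of 3′ gene counts. Fibre type was therefore 1 animal against 1 animal, and fibre type, animal and library cannot be told apart.

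Both genes encode small cytosolic proteins that hold retinoic acid, the active form of vitamin A. CRABP2 is known for handing retinoic acid to nuclear receptors that switch on target genes, whereas CRABP1 is tied to its retention and breakdown in the cytosol. Retinoids control keratinocyte differentiation and hair growth, and CRABP1 is used as a marker of the dermal papilla, the mesenchymal cell group at the base of the follicle. RSPO3 is a secreted enhancer of Wnt signalling made by papilla cells, COL1A1 is a chain of type I collagen from dermal fibroblasts, and KRT10 is the keratin of suprabasal epidermis.

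The kept cells numbered 3443 in CT-LCG, with a median of 2314 UMIs (unique molecular identifiers, each a counted RNA molecule), and 9608 in FT-LCG, with a median of 6121.5 UMIs. The libraries shared 11 barcode sequences among their kept cells. Levels are given as UMIs per 10000 UMIs of a cell group, and all intervals are 95% intervals (exact Poisson for levels, Clopper-Pearson for shares of cells) that cover counting error only. With 1 library per fibre type no test between types was made, and an exact paired test over 2 libraries could not go below p = 0.5. Clusters of cells placed 94 CT-LCG and 101 FT-LCG cells in the stromal compartment and 3128 and 9185 in the epithelial compartment. All 12 fibroblast markers had UMIs in the stromal cells of both libraries, with a summed level of 147 in CT-LCG and 215 in FT-LCG, against 0.263 and 0.448 in epithelial cells. The marker lists also named the clusters, so such sums describe the compartments and do not test them. Epithelial markers summed to 41.9 and 81.1 in stromal cells, against 425 and 454.5 in epithelial cells, and the part of these keratin counts in the values below was not tested.

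CRABP1 was high in stromal cells and near 0 in epithelial cells of both libraries. In CT-LCG its stromal level was 6.21 (5.497 to 6.985; 276 UMIs), with a UMI in 46 of 94 cells. In FT-LCG the stromal level was 3.62 (3.11 to 4.19; 180 UMIs), with a UMI in 30 of 101 cells. The epithelial levels were 0.00832 (0.00521 to 0.0126; 22 UMIs) in CT-LCG and 0.0187 (0.0159 to 0.0219; 154 UMIs) in FT-LCG. Stromal cells thus held 746 times the epithelial level in CT-LCG (483 to 1210.1) and 194 times in FT-LCG (155 to 242), a log2 ratio of 8.57 ± 1.38 (SD, n = 2 libraries). The size of the CRABP1 ratio depended on the processing, since the log2 values of 9.54 and 7.60 became 7.84 and 7.45 after thinning each cell to 1000 UMIs and 10.05 and 5.68 with compartments set by marker counts of each cell. They became 7.79 and 6.96 as means over cells, 8.99 and 6.11 with endothelial cells counted as stromal, and 12.4 and 7.95 with 10% free RNA subtracted. Endothelial cells, which served as a background type, had a CRABP1 UMI in 1 of 56 cells in CT-LCG and 2 of 154 in FT-LCG. Epithelial cells had one in 0.416% of 3128 cells and 1.03% of 9185 cells. The endothelial shares were 1.79% (0.0452 to 9.55) and 1.30% (0.158 to 4.61), intervals too wide to place the epithelial shares above or below them. When every cell was thinned to 1000 UMIs, the CRABP1 share was 31.9% and 25% in stromal cells, 0.216% and 0.232% in epithelial cells and 0 of 47 and 0 of 136 in endothelial cells.

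CRABP2 was also higher in stromal cells, by a smaller ratio, and epithelial cells carried it at a measurable level in both libraries. Its stromal level was 6.18 in CT-LCG (5.48 to 6.96; 275 UMIs in 55 of 94 cells) and 3.58 in FT-LCG (3.08 to 4.15; 178 UMIs in 41 of 101 cells). The epithelial level was 0.900 in CT-LCG (0.864 to 0.937; 2380 UMIs in 501 cells) and 0.632 in FT-LCG (0.615 to 0.650; 5201 UMIs in 1330 cells). The stromal level was 6.87 times the epithelial one in CT-LCG (6.04 to 7.79) and 5.67 times in FT-LCG (4.85 to 6.58), a log2 ratio of 2.64 ± 0.20 (SD, n = 2 libraries). With compartments set by marker counts of each cell the CRABP2 log2 ratio was 2.73 for CT-LCG and 0.53 for FT-LCG, and with endothelial cells counted as stromal 2.24 and 1.07. CRABP2 was detected in a larger share of epithelial cells (16.02% and 14.5%) than of endothelial cells (5.36% and 3.25%). After thinning to 1000 UMIs the epithelial shares were 6.70% and 4.89%, and the endothelial ones, on 2 and 1 cells, were 4.26% and 0.735%.

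Epithelial cells made up most of each library, and the 2 genes had different main sources of counts. Stromal cells supplied 84.4% of the CRABP1 UMIs of CT-LCG (80.0 to 88.2) and 51.9% of those of FT-LCG (46.5 to 57.2). Epithelial cells supplied 89.4% and 94.96% of the CRABP2 UMIs. For CRABP1 the epithelial share was 6.73% for CT-LCG and 44.4% for FT-LCG, which had 9185 epithelial cells to 101 stromal ones.

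The partner genes gave the range of compartment ratios in the same cells. RSPO3 was at 12.6 and 1.67 in stromal cells and at 0.00681 and 0.00134 in epithelial cells, ratios of 1850.1 and 1249. COL1A1 was at 47.0 and 102 in stromal cells and at 0.0458 and 0.0501 in epithelial cells, ratios of 1027 and 2040.1. KRT10 went the other way, with 19.9 and 19.3 in stromal cells against 245 and 162.5 in epithelial cells. The CRABP1 ratios were below those of both stromal partner genes in each library. In CT-LCG the CRABP1 interval (483 to 1210.1) overlapped those of RSPO3 (1160 to 3145) and COL1A1 (855 to 1244). In FT-LCG the CRABP1 interval was apart from both.

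Splitting the stromal and melanocyte-containing clusters into 7 sub-clusters showed that both genes were found in papilla-like and fibroblast-like cells and were at or near 0 in mural-like, contractile and melanocyte-like cells. The papilla-like cells were led by CXCL13, BMP3, SOX18 and HHIP and carried the papilla genes RSPO3 (16.5 and 11.2) and WIF1 (8.13 and 5.26). The fibroblast-like cells were led by CPZ, MFAP5 and LUM and had COL1A1 at 361 and 380.2, with a COL1A1 UMI in every cell. Another group, led by COCH, OGN and ASPN, matched no marker list and stayed unnamed. These sub-clusters held from 3 to 63 cells per library, so they were not ranked.

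In the papilla-like cells CRABP1 was at 8.01 in CT-LCG (7.08 to 9.03; 269 UMIs in 45 of 63 cells) and at 6.54 in FT-LCG (4.79 to 8.73; 46 UMIs in 7 of 13 cells). CRABP2 was there at 6.97 in CT-LCG (6.11 to 7.92; 234 UMIs in 45 of 63 cells) and at 8.96 in FT-LCG (6.89 to 11.5; 63 UMIs in 11 of 13 cells). For both genes the interval of the CT-LCG to FT-LCG ratio held 1 in these cells (0.893 to 1.71 for CRABP1, 0.587 to 1.04 for CRABP2).

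The fibroblast-like cells shared CRABP2 between libraries but not CRABP1. CRABP2 was at 7.53 in CT-LCG (5.36 to 10.3; in 8 of 8 cells) and at 5.65 in FT-LCG (4.42 to 7.12; in 19 of 32 cells), and the ratio interval held 1 (0.879 to 2.00). CRABP1 was at 1.35 in CT-LCG (0.544 to 2.79), all 7 UMIs from 1 of 8 cells, and at 8.24 in FT-LCG (6.74 to 9.98; 105 UMIs in 16 of 32 cells). The fine-type fibroblast-like cells were thus higher in CRABP1 by 2.61 on the log2 scale, a difference that rests on 8 coarse-type cells and was not tested over animals. The unnamed COCH group held 3 cells in CT-LCG, with 0 CRABP1 UMIs and 1 CRABP2 UMI. Its 13 FT-LCG cells had CRABP1 at 9.66 (6.47 to 13.9; 7 cells) and CRABP2 at 12.0 (8.40 to 16.6; 7 cells).

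**Figure D1:**
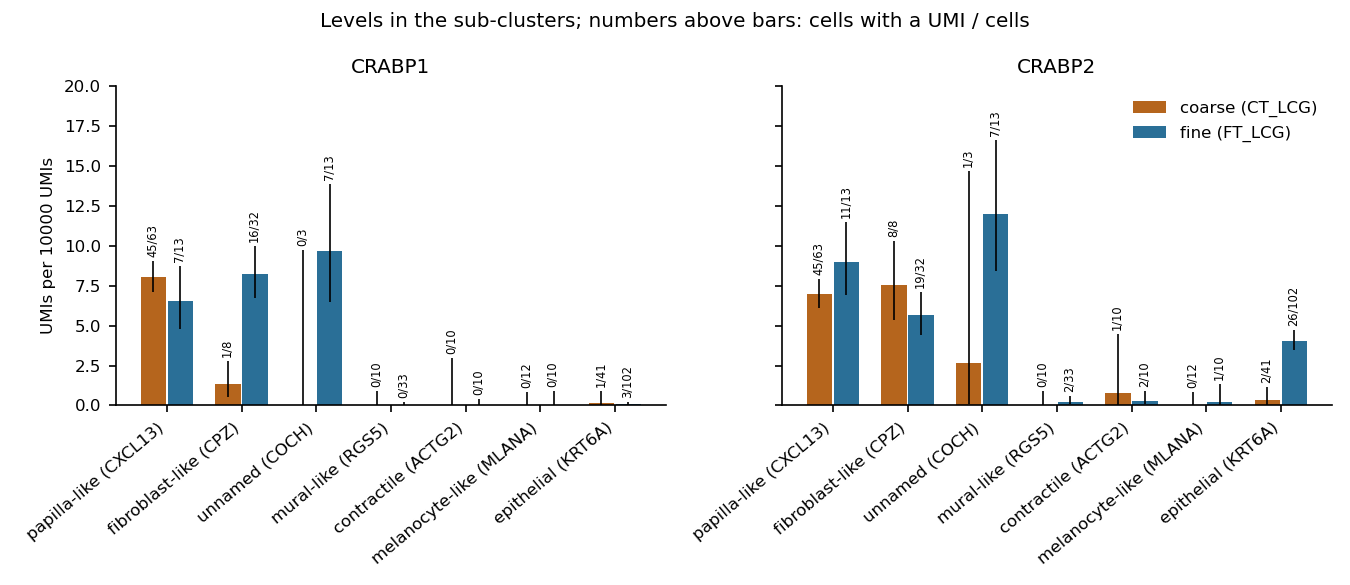
Level of CRABP1 (left) and CRABP2 (right) in UMIs per 10000 UMIs in the 7 sub-clusters, with the first leading gene in brackets, orange for CT-LCG and blue for FT-LCG. Lines are exact Poisson 95% intervals and the numbers above are cells with a UMI of all cells: the papilla-like bars sit between 6.54 and 8.96, the mural-like ones at 0 or, for CRABP2 in FT-LCG, 0.234.

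Mural-like and contractile cells marked the lower end. The mural-like cells, led by RGS5, a pericyte gene, had 0 CRABP1 UMIs in 10 CT-LCG and 33 FT-LCG cells and, in all, 4 CRABP2 UMIs in 2 FT-LCG cells, although COL1A1 was found in 5 of 10 and 13 of 33 of them. A contractile sub-cluster of 10 cells in each library, led by ACTG2 and CNN1, had 0 CRABP1 UMIs in both libraries and 1 and 3 CRABP2 UMIs. It carried the smooth muscle actin ACTA2 at 112 and 62.1 and also the keratin KRT5 at 46.0 and 33.4, with 0 COL1A1 UMIs. Without these contractile cells the stromal levels were 6.39 and 4.52 for CRABP1 and 6.34 and 4.39 for CRABP2. Melanocyte-like cells had 0 CRABP1 UMIs in 12 and 10 cells, which, at 3 counts, allows a share of cells with a UMI of up to 25% and 30%.

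Over all stromal cells both genes were higher in CT-LCG, by 0.78 on the log2 scale for CRABP1 (ratio interval 1.42 to 2.08) and by 0.79 for CRABP2 (1.42 to 2.10). The make-up of the compartment moved with this difference. Papilla-like cells were 63 of 94 stromal cells in CT-LCG and 13 of 101 in FT-LCG, whereas mural-like cells, which had little of either gene, were 10 and 33. The part of this make-up in the library difference was not tested.

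Within the stroma the CRABP genes were often detected in the same cells. A CRABP2 UMI was found in 36 of 46 CT-LCG cells with a CRABP1 UMI (78.3%) and in 19 of 48 without (39.6%). In FT-LCG it was found in 26 of 30 cells with (86.7%) and 15 of 71 without (21.1%). Thinning to 1000 UMIs kept the direction and lowered the differences from 38.7 to 19.0 percentage points in CT-LCG and from 65.5 to 33.3 in FT-LCG. The CT-LCG cells with CRABP1 were deeper than those without (medians of 5883.5 and 2520.5 UMIs), while in FT-LCG the depths were alike (3854 and 3924).

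Counted as classes, 36 stromal cells of CT-LCG had both genes, 10 had CRABP1 only, 19 had CRABP2 only and 29 had neither. In FT-LCG the counts were 26, 4, 15 and 56. Mural-like and contractile cells accounted for 19 of the 29 and 39 of the 56 cells with neither gene. Inside the papilla-like cells, CRABP2 was found in 35 of 45 cells with CRABP1 and 10 of 18 without in CT-LCG, and in 7 of 7 and 4 of 6 in FT-LCG. In the fibroblast-like cells of FT-LCG it was found in 13 of 16 cells with CRABP1 and 6 of 16 without. The difference thus had the same direction inside these sub-clusters as over all stromal cells, on few cells.

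**Figure D2:**
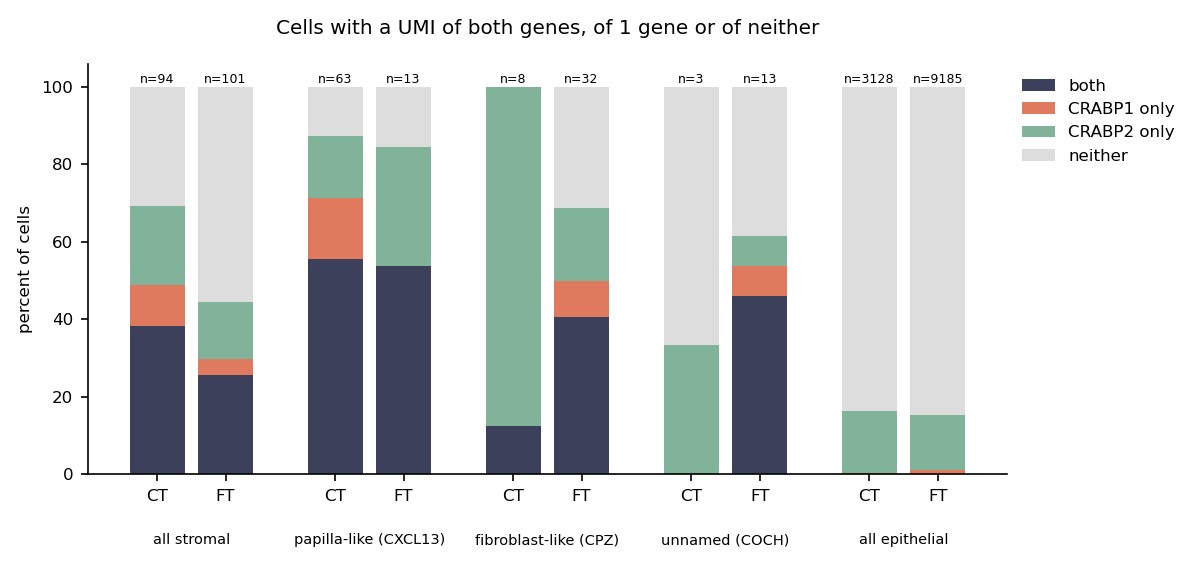
Percent of cells (vertical axis) with a UMI of both genes, of CRABP1 only, of CRABP2 only or of neither, for CT-LCG and FT-LCG in all stromal cells, 3 stromal sub-clusters and all epithelial cells, with n the number of cells. The class with both genes held 36 of 94 and 26 of 101 stromal cells against 4 of 3128 and 9 of 9185 epithelial cells.

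RSPO3 followed CRABP1 in the stroma. It was detected in 37 of 46 CT-LCG cells with CRABP1 (80.4%) against 15 of 48 without (31.2%), and in 7 of 30 (23.3%) against 2 of 71 (2.82%) FT-LCG cells. The differences of 49.2 and 20.5 percentage points became 19.7 and 9.09 after thinning. All 3 genes together were found in 31 of 94 CT-LCG and 7 of 101 FT-LCG stromal cells. Of the stromal cells with RSPO3, 44 of 52 in CT-LCG and 9 of 9 in FT-LCG had at least 1 of the CRABP genes. Within the papilla-like cells RSPO3 was found in 37 of 45 cells with CRABP1 and 13 of 18 without in CT-LCG, and in 6 of 7 and 2 of 6 in FT-LCG, so the contrast in CT-LCG was small once the sub-cluster was held fixed.

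The RSPO3 difference beside CRABP2 shrank after thinning, as it did beside CRABP1. It was lost in CT-LCG, while in FT-LCG the thinned value was the same beside both genes. RSPO3 was detected in 38 of 55 CT-LCG cells with CRABP2 (69.1%) and 14 of 39 without (35.9%), but after thinning the difference was -0.56 percentage points. In FT-LCG it was found in 9 of 41 cells with CRABP2 and in 0 of 60 without, a difference of 21.95 percentage points that was 9.09 after thinning (3 of 22 against 3 of 66 cells).

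COL1A1 was detected more often beside either gene, and its level was higher beside CRABP2 in both libraries but beside CRABP1 in FT-LCG only. A COL1A1 UMI was found in 51 of 55 CT-LCG stromal cells with CRABP2 (92.7%) against 20 of 39 without (51.3%), and in 36 of 41 (87.8%) against 29 of 60 (48.3%) in FT-LCG. The differences of 41.5 and 39.5 percentage points became 31.4 and 18.2 after thinning. For CRABP1 the shares were 91.3% against 60.4% in CT-LCG and 96.7% against 50.7% in FT-LCG. The level of COL1A1 in stromal cells with CRABP1 was 9.18 in CT-LCG, against 114 in those without, and 319.6 in FT-LCG, against 15 (13.8 to 16.3) in those without. The order of these levels was opposite in the 2 libraries, in which the CRABP1 cells were mostly papilla-like (45 of 46) in CT-LCG and mostly fibroblast-like (16 of 30) or of the COCH group (7 of 30) in FT-LCG. With CRABP2, whose cells included all 8 coarse-type fibroblast-like cells, COL1A1 was higher in both libraries (60.3 against 4.97 and 204 against 18.3).

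Few epithelial cells had a CRABP1 UMI, so few could have both genes. Of the epithelial cells with CRABP1, 4 of 13 in CT-LCG and 9 of 95 in FT-LCG (9.47%) had CRABP2. Among those without CRABP1 15.96% and 14.5% had CRABP2, so the direction differed between the libraries. RSPO3 was found in 0.599% of CT-LCG epithelial cells with CRABP2 and 0.419% of those without, and COL1A1 in 3.99% and 3.08%. In FT-LCG the shares were 0.226% (3 of 1330 cells) and 0.0764% (6 of 7855) for RSPO3 and 5.87% and 3.60% for COL1A1, and 2% (8 of 400) and 1.19% for COL1A1 after thinning. The depths differed strongly, since the epithelial cells with CRABP2 had medians of 14288 and 11158 UMIs and those without had 1832 and 5647.

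By the mean of both libraries the COL1A2-led cluster, named fibroblast-like, was highest of the 17 for both genes, and below it the genes parted. That cluster was mixed and also held the papilla-like cells. Of its 105 CT-LCG cells 63 were papilla-like and 8 belonged to the fibroblast-like sub-cluster, and of its 133 FT-LCG cells 13 and 32. In CT-LCG 269 of its 277 CRABP1 UMIs were in papilla-like cells. In FT-LCG the ACTG2 cluster was above the COL1A2 cluster for CRABP2 (4.97 against 2.94), and all 80 of its cells there went to the KRT6A-led epithelial sub-cluster. In CT-LCG the ACTG2 cluster was mixed, with 32 KRT6A-led epithelial and 10 contractile cells, and was at 0.167 (1 UMI). The epithelial cluster with the highest mean CRABP2 level among those not split further was led by KRT4 and S100A7A, with 2.58 in CT-LCG (2.36 to 2.81; 44 of 71 cells) and 1.72 in FT-LCG (1.57 to 1.87; 75 of 180 cells). Next came a cluster led by SFRP1 and LGR5, named as outer root sheath or bulge, with 1.47 and 2.23 (30 of 89 and 201 of 672 cells). It was followed by the granular-like cluster led by LOR, the loricrin of the cornified envelope, with 1.33 and 0.945 (44 of 121 and 107 of 333 cells). A cluster led by EDN1, with KRT79 and KRT77, which are known from the follicle opening and sweat duct region of epidermis, had 1.30 and 0.874 (71 of 181 and 211 of 764 cells). At the coarser resolution of 0.4 the highest epithelial level fell from a mean of 2.15 to 1.28.

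Basal-like keratinocytes, led by POSTN and COL17A1, were the lowest epithelial cluster for CRABP2 in CT-LCG and by the mean of both libraries, with levels of 0.212 (0.168 to 0.264) in CT-LCG and 0.141 (0.123 to 0.161) in FT-LCG. In FT-LCG the CCL27 cluster (0.0876) and the cycling cluster (0.118) were lower. The inner root sheath-like cluster led by KRT27 was in between, with 0.992 and 0.792, beside 0.954 and 0.641 over all kept cells. Its cells had the lowest median depth of the clusters in both libraries (1086 and 1124 UMIs). Of the 16 pairs of neighbours in this order, 7 had separate intervals in both libraries, 5 overlapped in both and 4 were separate in 1 library only. The spread within clusters was wide. A single granular-like cell of CT-LCG held 112 of that cluster's 393 CRABP2 UMIs, and the highest cell of all, of the SFRP1 cluster in FT-LCG, held 124 of 1266.

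The KRT6A-led epithelial sub-cluster, with the outer root sheath keratins KRT14 and KRT19 among its leading genes, stood out by library. Its CRABP2 level was 0.326 in CT-LCG (2 UMIs in 2 of 41 cells) and 4.07 in FT-LCG (3.48 to 4.72; 172 UMIs in 26 of 102 cells). KRT6A was at 2.93 and 72.7 and KRT14 at 55.2 and 431 in the same cells, so the sub-cluster differed between libraries in its own keratins as well.

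Immune clusters had few CRABP2 counts, with 2 exceptions in FT-LCG. The macrophage or dendritic-like cells had 66 UMIs in 24 of 84 cells there (0.497) and 0 UMIs in 30 cells in CT-LCG. The mast-like cells of FT-LCG were at 2.12 on 20 UMIs in 3 of 27 cells, and at 0.0559 in CT-LCG (2 UMIs). Their FT-LCG interval (1.29 to 3.27) held the level of the KRT4 cluster of that library (1.72). Of the 20 UMIs 10 were from 1 cell, and without it the level was 1.45 (0.697 to 2.67). Endothelial cells were at 0.143 and 0.0985.

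**Figure D3:**
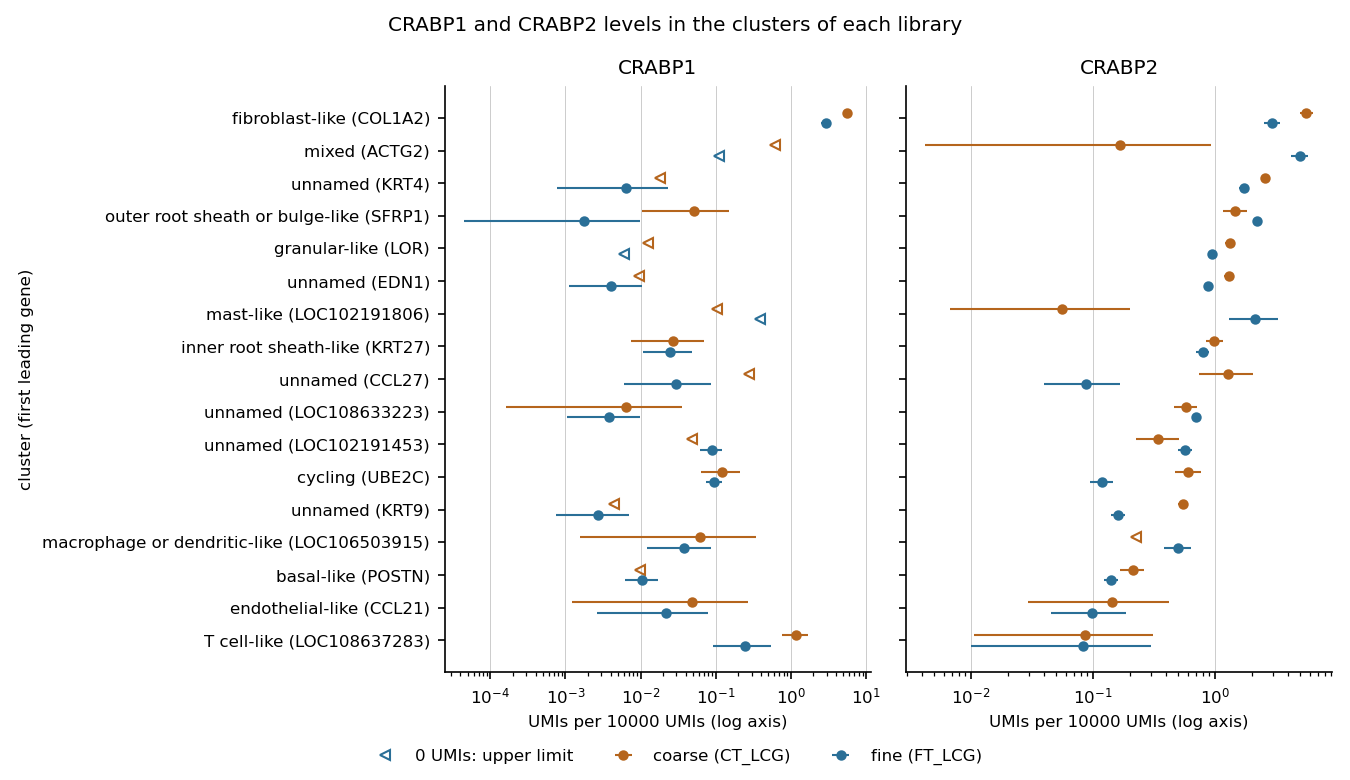
Level of CRABP1 (left) and CRABP2 (right) in UMIs per 10000 UMIs, on log axes, in the 17 clusters ordered by mean CRABP2 level, with exact Poisson 95% intervals, orange for CT-LCG and blue for FT-LCG, and open triangles for the upper limit where a cluster had 0 UMIs. The fibroblast-like cluster (COL1A2), which also held the papilla-like cells, is highest for CRABP1 (5.64 and 2.94), followed by the T cell-like one. CRABP2 falls off gradually through the epithelial clusters, and the mixed ACTG2 cluster held KRT6A-led epithelial cells and, in CT-LCG only, contractile cells.

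For CRABP1 the next cluster below the COL1A2 cluster was T cell-like, where all 27 UMIs of CT-LCG came from 1 cell. That cell also had 7 RSPO3, 2 COL1A1, 16 CD3E and 5 CD3G UMIs among 10007, so it carried T cell transcripts and RSPO3 together. Among epithelial clusters CRABP1 was highest in cycling cells, with 0.121 in CT-LCG (5 of 163 cells) and 0.0962 in FT-LCG (38 of 468 cells). In CT-LCG 9 of the 13 UMIs were from 1 cell of 130262 UMIs, and without it the level was 0.0425 (0.0116 to 0.109), no longer above the SFRP1 cluster (0.0513, 3 UMIs). In FT-LCG, 28 of those 38 cells had the proliferation marker MKI67 and 13 had the hair keratin KRT35, shares of 73.7% and 34.2% beside 70.9% and 27.9% of the cycling cells without CRABP1. In CT-LCG, MKI67 was found in 3 of 5 cells with CRABP1 against 20.25% of 158 without, and after thinning FT-LCG had MKI67 in 3 of 5 cells against 18.7% and KRT35 in 2 of 5 against 8.02%, so 5 cells set each of these values. A cluster with KRT35 in most of its FT-LCG cells had 36 CRABP1 UMIs in 11 of 309 cells there and 0 in 108 cells of CT-LCG. Its FT-LCG level was 0.0887 (0.0621 to 0.123), an interval that overlapped that of the cycling cells there (0.0753 to 0.121). Thinned to 1000 UMIs, the share of cycling cells with CRABP1 was 1.40% and 1.10%, above the 0.216% and 0.232% of all epithelial cells but resting on 2 and 5 cells.

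CRABP2 tended to be higher in the coarse-type library within epithelial clusters, in 8 of 11 clusters by an interval of the ratio above 1. It was higher in FT-LCG in 2 clusters, the SFRP1 cluster (log2 CT-LCG over FT-LCG of -0.60) and the KRT35-bearing cluster (-0.74), and in 1 cluster the interval held 1. The KRT6A-led epithelial sub-cluster was not among these 11 and was higher in FT-LCG (0.326 against 4.07). The largest ratios were in clusters with few counts, such as the CCL27 cluster with 17 and 9 UMIs (log2 of 3.86) and the cycling cluster (2.37), in which 46 of 65 CT-LCG UMIs were from 1 cell. Without the highest cell of each library, the granular-like levels were 0.989 and 0.873, with overlapping intervals. These were intervals of the levels, not of the ratio as above. Those of the basal-like and cycling clusters then also overlapped. In the inner root sheath-like cluster the level intervals overlapped without the highest cells and already with all cells (0.837 to 1.17 against 0.698 to 0.895). The level intervals stayed apart in the KRT9, EDN1, KRT4 and CCL27 clusters.

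KRT10 could not be read from detection, because nearly every cell had it. All 3128 CT-LCG epithelial cells had a KRT10 UMI, and so did all 94 stromal cells, so its level was compared instead. Over the 11 epithelial clusters, KRT10 was lower in cells with CRABP2 in both libraries in 4, higher in both in 0, and mixed or overlapping in 7. It was lower by more than 1.5-fold in both libraries in 2 clusters, the EDN1 and the granular-like ones, which are described here because of these values. In the EDN1 cluster KRT10 was at 253 in 71 CT-LCG cells with CRABP2 against 441 in 110 without, and at 198 in 211 FT-LCG cells against 333 in 553. In the granular-like cluster it was at 187 in 44 cells against 404 in 77 in CT-LCG, and at 190.2 in 107 cells against 347 in 226 in FT-LCG.

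The medians over cells ran the same way, with 216.5 against 361 and 157 against 215.5 in the EDN1 cluster and 161 against 291 and 152 against 235 in the granular-like cluster. The median depths in CT-LCG were 20282 UMIs with CRABP2 against 20892.5 without in the EDN1 cluster, and 20522 against 24223 in the granular-like cluster. The part of depth in these KRT10 differences was not tested in either library. The inner root sheath-like cluster had 178 against 201 in CT-LCG and 48.3 against 166 in FT-LCG by level, but medians over cells of 179 against 180.2 and 135 against 149. In the KRT4 cluster KRT10 was at 353 with and 352 without CRABP2 in CT-LCG and at 547 and 593 in FT-LCG, and in the KRT9 cluster at 325 and 315 and at 346 and 354. In the SFRP1 cluster, where KRT10 was low, the order differed between libraries (27.7 against 24.0 and 14.4 against 23.3), and KRT14, the basal and outer root sheath keratin, was higher with CRABP2 in both (117 against 34.6 and 236 against 124 by level).

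**Figure D4:**
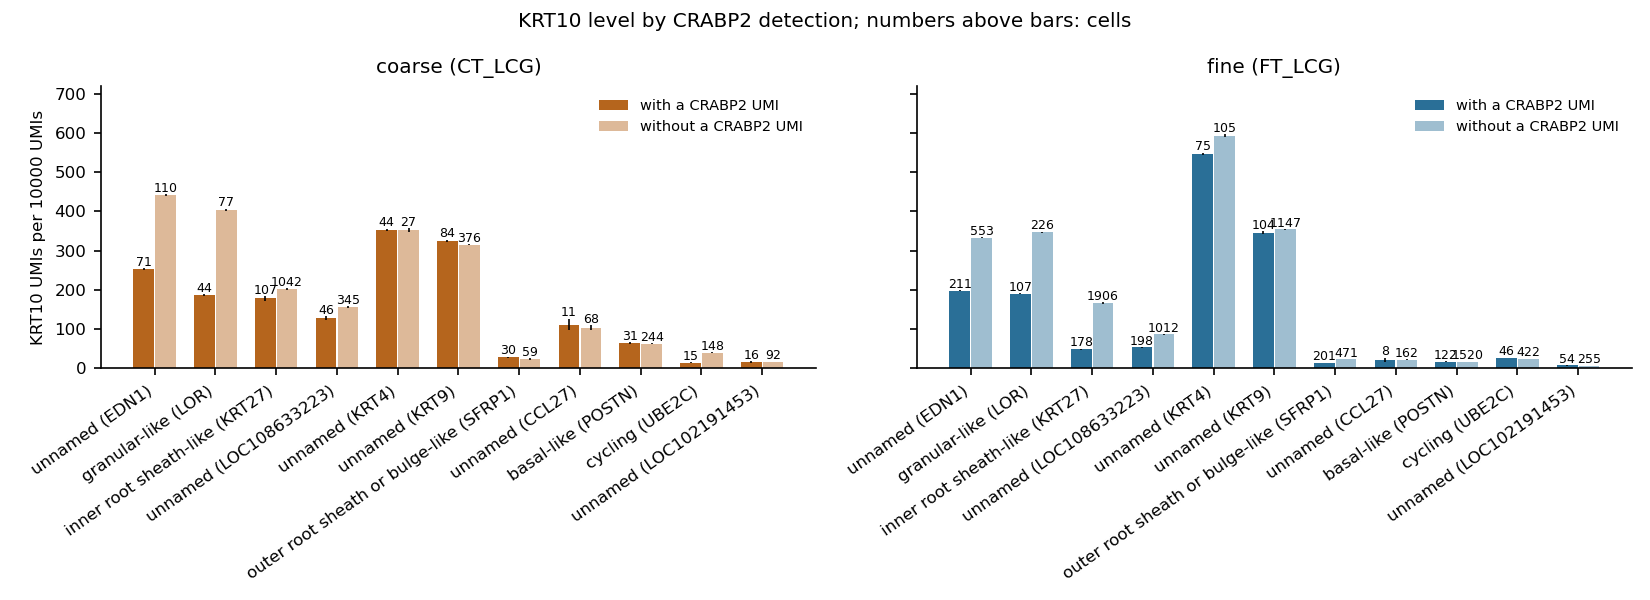
KRT10 level in UMIs per 10000 UMIs in cells with (dark) and without (light) a CRABP2 UMI, in the 11 epithelial clusters named by their first leading gene, CT-LCG on the left and FT-LCG on the right, with exact Poisson 95% intervals and numbers of cells above. The EDN1 and granular-like pairs are lower with CRABP2 in both libraries (253 against 441 and 187 against 404 in CT-LCG), and the KRT4 and KRT9 pairs lie close together.

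In likeness of pattern the genes had different company. Over 34 points (17 clusters in each of 2 libraries) and 9947 genes that reached 100 UMIs per library, the genes with the highest Pearson correlation with CRABP1 were TWIST1 (0.949), PCOLCE (0.920), COL6A1 (0.909), OLFML3 (0.905) and PRRX2 (0.894). TWIST1 and PRRX2 are mesenchymal transcription factors, and PCOLCE and COL6A1 belong to the collagen matrix. TWIST1 was at 12.4 and 5.03 in stromal cells and at 0.0132 and 0.00292 in epithelial cells. The genes closest to CRABP2 were RMND5B (0.748), YIPF2 (0.745), TMCO4 (0.737), CHCHD10 (0.720) and SEMA3C (0.714), all further from it than the fifth gene was from CRABP1. CRABP1 and CRABP2 correlated with each other at 0.192. At most points CRABP1 was below the 0.1 that was added before the log. The exceptions were the COL1A2 and T cell-like clusters of both libraries and the cycling cluster of CT-LCG. The correlations with CRABP1 thus rest on few points, and its CT-LCG T cell-like value came from 1 cell. Points of 1 library share its depth and free RNA, so all these correlations describe the order only.

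The other genes of retinoid handling mostly had no shared side. Of 36 listed genes 31 were in the matrix and 19 passed the count minimum, with 10 of them at a level of at least 0.5 in a compartment. Called higher than 2-fold in both libraries, 4 were stromal and 2 epithelial, and 13 were neither. Over all 9947 genes tested the calls were 12.1% stromal and 5.51% epithelial, and the median log2 ratio of the list was -0.26 in CT-LCG and 0.28 in FT-LCG against 0.28 and 0.23 over all genes.

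Of the 4 carriers tested 1 was called, on the stromal side. It was RBP4, the blood carrier of retinol, with levels of 2.09 and 2.31 against 0.0310 and 0.0932 in epithelial cells (log2 of 6.08 and 4.63). The macrophage or dendritic-like cluster was above the stromal level of RBP4 in both libraries, with 11.1 in CT-LCG (181 UMIs) and 3.115 in FT-LCG (414 UMIs).

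Among the enzymes of retinoic acid synthesis and its control, DHRS3, which turns retinal back to retinol, was higher in stromal cells (log2 of 2.53 and 1.42). In FT-LCG 29 of its 67 stromal UMIs were in the 10 contractile cells and 22 in the mural-like cells (1.29). Papilla-like cells there were at 1.71 and fibroblast-like cells at 0.314 (4 UMIs), against 0.505 in epithelial cells. Without contractile cells the mean log2 ratio of DHRS3 was 1.65 ± 1.04 (SD, n = 2 libraries). The FT-LCG ratio was then under 2-fold, so the stromal call of DHRS3 depended on these cells. ALDH1A3, which makes retinoic acid from retinal, was also higher in stromal cells, with 1.01 and 0.322 against 0.0344 and 0.0383. Its source differed by library, since the papilla-like cells had 1.22 in CT-LCG and 0 UMIs in FT-LCG, where the COCH group had 3.67. ALDH1A1, of the same enzyme family, had log2 ratios of -3.25 and 0.37. In FT-LCG its stromal interval (0.474 to 0.956) held the epithelial level of 0.5285, and 14 of the 34 stromal UMIs were in contractile cells. Among epithelial clusters ALDH1A1 was highest in the KRT4 cluster (3.57 and 6.97), which led for CRABP2 by the mean of both libraries. RDH10, which starts the oxidation of retinol, had log2 ratios of 1.30 and 0.67. RDH12, named after its value was seen because it was 1 of the 2 epithelial calls, had a log2 of -1.63 in CT-LCG and 0 stromal UMIs in FT-LCG. No feature of the matrix carried the symbols of the breakdown enzymes CYP26A1, CYP26B1 and CYP26C1, so they were not analysed here.

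None of the 5 receptors tested passed in either direction, and RARG, the main retinoic acid receptor of epidermis, had log2 ratios of -0.26 and -1.59. FABP5, a fatty acid carrier of the same lipid-binding family, was epithelial, with 32.7 and 25.04 against 2.97 and 3.68 (log2 of -3.46 and -2.77), and was high in the granular-like (61.8 and 77.8) and KRT4 (69.4 and 47.1) clusters. RARRES2, or chemerin, a retinoid-responsive gene, was stromal (log2 of 6.04 and 4.53) and, unlike the CRABP genes, was found in mural-like cells at 6.59 and 9.61. NRIP1, a nuclear receptor cofactor that responds to retinoids, had log2 ratios of -0.54 and 0.80.

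**Figure D5:**
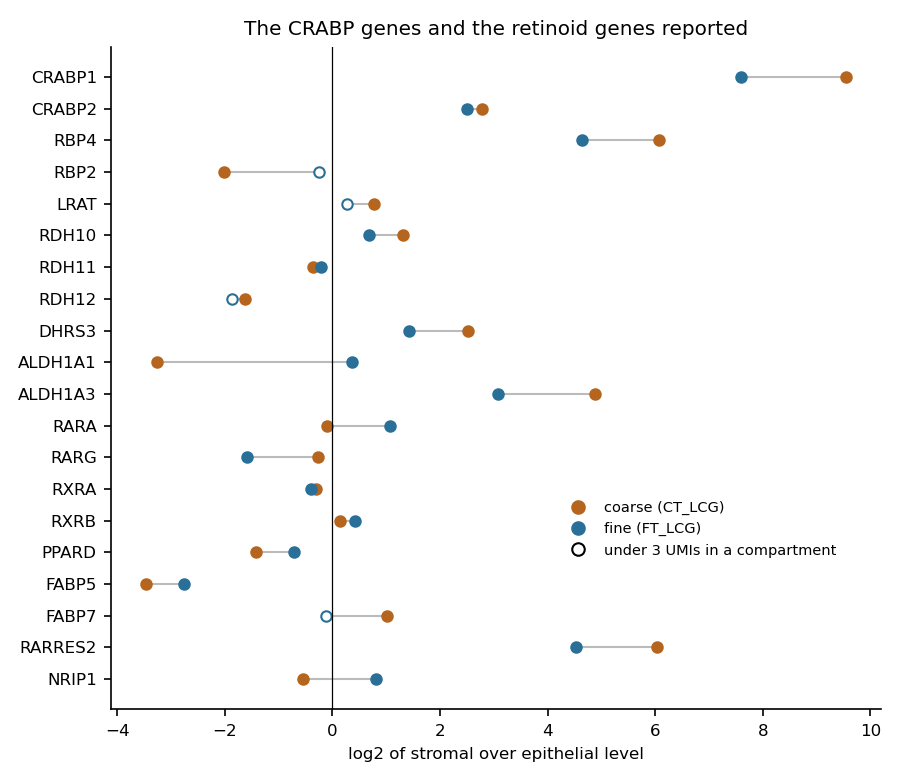
Log2 ratio of the stromal to the epithelial level (horizontal axis) for CRABP1, CRABP2 and the retinoid genes tested and reported here, orange for CT-LCG and blue for FT-LCG, with open points where a compartment had under 3 UMIs. CRABP1 lies farthest to the right (9.54 and 7.60), RBP4, RARRES2 and ALDH1A3 follow, and FABP5 lies to the left in both libraries (-3.46 and -2.77).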

How the data were processed

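Skin cells of 1 coarse-type and 1 fine-type goat were measured with droplet 3′ single-cell RNA sequencing. The deposited values are raw counts of UMIs per gene and barcode, which the authors made with Cell Ranger (3.0.2 in the file header) without normalization. The submitters' processing notes also name Seurat (3.1.1) and bcl2fastq. Which genome build the reads were aligned to is not given in the sources used here. Those cells that the authors kept, each with at least 501 genes, and their fibre type came from the deposited cell table, and 0 columns were left unused. The labels do not tie the libraries to the GEO samples.

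Counts were scaled to 10000 UMIs per cell. The 2000 most variable genes, without the 36 genes described here, gave 10 principal components, which were corrected for library by Harmony (rewritten in numpy) and clustered (20 neighbours, Leiden resolution 0.7; 17 clusters). Stromal clusters were clustered again (1000 variable genes, resolution 0.5; 7 sub-clusters). Names needed 3 markers with at least 10 UMIs each, a mean log2 fold of at least 1 and 1 marker among the 10 leading genes, and clusters under 20 cells in a library were not ranked. Cycling and unnamed clusters went to the compartment with the highest marker sum, a rule set after the first names were seen. Scrublet marked 0 cells, so doublets were not removed, and leaving out the 5% with the highest score was an alternative. Shares were repeated after thinning each cell to 1000 UMIs, which left out 369 CT-LCG and 1039 FT-LCG cells. Ratios used a floor of 3 counts, likeness used log2 of the level plus 0.1, and genes compared across clusters had at least 100 UMIs per library.

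The text names the members, their partners, retinoid genes with a level of at least 0.5 in a compartment, and the 5 genes most like each member. The values of 1 gene of the retinoid list are not reported here, and it stays in the list's counts and medians. The members and lists were chosen with earlier results of these data known. No p-value was computed between compartments or fibre types. Scripts were tested on simulated data. Tools were Python 3.11.15, scanpy 1.11.5, numpy 2.4.6, pandas 2.3.3, scipy 1.17.1, scikit-learn 1.9.0, leidenalg 0.10.2, igraph 0.11.9 and matplotlib 3.10.9. No sequence or position of the genes was used here.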

Additional observations from a re-analysis of the deposited data

Results flagged for a closer look

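Both genes also had counts in barcodes of the matrix that were not among the kept cells. In CT-LCG these 2659 barcodes had CRABP1 at 0.0757 (15 UMIs in 12 barcodes) and CRABP2 at 0.757 (150 UMIs in 142 barcodes), against 0.117 and 0.954 in the kept cells. In FT-LCG the 1589 barcodes had CRABP1 at 0.120 (12 UMIs in 10 barcodes) and CRABP2 at 0.913 (91 UMIs in 83 barcodes), against 0.0406 and 0.641. All 4 values were above the level of 3 counts, 0.0151 in CT-LCG and 0.0301 in FT-LCG. CRABP2 was higher in CT-LCG in 8 epithelial clusters but higher in FT-LCG in the SFRP1 cluster (log2 CT-LCG over FT-LCG of -0.60) and in the KRT35-bearing cluster (-0.74), and with 1 library per type this difference between clusters was not tested. The KRT6A-led epithelial sub-cluster, also higher in FT-LCG, was not among the clusters counted.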

How the results depend on the processing

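CRABP1 and CRABP2 stayed higher in stromal cells, and the co-detection differences of CRABP2, RSPO3 and COL1A1 stayed above 0, under every alternative run. The KRT10 difference was at or above 0, but with KRT10 in nearly every cell it could hardly move. Of the values for these results, the cluster level and the list counts, 21 moved and 94 did not, and 11 of the 94 were for KRT10. Values moved if they changed by more than the spread of the 2 libraries, or, for the list counts, by more than a set fold. A library alone always lies within that spread of the mean. Apart from the list counts, the values of each library alone therefore could not move, and those among the 94 do not show stability. The CRABP1 log2 ratio of 8.57 became 10.18 with 10% free RNA subtracted, where the CT-LCG epithelial count fell to the floor of 3. The CRABP2 log2 ratio of 2.64 became 1.63 with marker gates per cell (90 and 160 stromal cells), 1.65 with endothelial cells counted as stromal and 2.85 after thinning. Thinning also moved CRABP2 by CRABP1 from 52.1 to 26.2 percentage points (means of the 2 libraries), RSPO3 by CRABP1 from 34.8 to 14.4, COL1A1 by CRABP2 from 40.5 to 24.8, KRT10 by CRABP2 from 0.0869 to 1.21, and the list counts to 7 stromal and 1 epithelial. COL1A1 by CRABP2 became 36.4 at resolution 0.4, 31.8 without Harmony, 33.6 with at least 1000 genes per cell, 45.95 without the 5% of cells with the highest Scrublet score and 32.3 when 2 UMIs counted as detected. In alternatives chosen after seeing the data it was 32.2 without the contractile cells and 46.9 in papilla-like cells only, where CRABP2 by CRABP1 was 27.8. The highest CRABP2 level of an epithelial cluster, 2.15, became 1.28 at resolution 0.4, and the epithelial list count became 4 with endothelial cells as stromal. Each library alone gave 7.60 to 9.54, 2.50 to 2.78, 38.7 to 65.5, 20.5 to 49.2, 39.5 to 41.5 and 0 to 0.174 for the 6 results in this order, 1.72 to 2.58 for the cluster level, 5 to 6 stromal and 3 to 5 epithelial list genes. NRIP1 turned negative without Harmony (-0.56), with gates (-0.15), in CT-LCG alone (-0.54, against 0.80 in FT-LCG alone), after thinning (-0.55), as a mean over cells (-0.50), with endothelial cells as stromal (-0.081) and without contractile cells (-0.64), and ALDH1A1 turned positive in FT-LCG alone (0.37, against -3.25 in CT-LCG alone). Except for the free RNA value, the cause was not tested. Stromal values rest on 94 and 101 cells. The compartment ratios were taken within each library, and no paired test of them was run, since over 2 libraries its p could not go below 0.5.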
